A study of Glycine max with 12 samples.

Results

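The genes described here are 19 soybean transcripts whose level in pods under heat stress alone lay on one side of all 9 other libraries. They were picked from 57147 gene IDs by a rule on CPM, a gene's read count per 1000000 counts of its library. In 9 genes the lowest of the 3 heat libraries was at least 1.5 times the highest of the 9 others, and in 10 genes the highest heat library was at most the lowest of the others divided by 1.5. A mean of at least 5 CPM over the 12 libraries and a control mean under 500 CPM were also required, which 24924 genes met. The rule therefore used the contrast of heat with every other group, and all values under heat are given as a description without a test. The working name of the set is heat changes cancelled by water deficit. It does not apply to 2 genes of the lower set, which had 0 counts in heat and almost none in control. Nor does it describe genes in which combined stress lay beyond control, on the other side from heat and without overlap. These were GLYMA_15G002200, GLYMA_06G073700 and GLYMA_09G029400, at 3.83, 1.86 and 1.56 times control, and GLYMA_07G115400, at 0.512 times.

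The libraries were made from pods of Glycine max cultivar Magellan, grown for 16 to 18 days until the first open flower and then placed in 4 growth chambers. The 2 cooler chambers ran at 28 °C in the day and 24 °C in the night, with irrigation set to 100% of the transpirable water for control and to 30% for water deficit. The 2 hotter chambers ran at 38 °C in the day and 28 °C in the night, again with 100% of the water for heat stress and 30% for combined stress. Every condition had 3 libraries, each from 10 to 15 pods pooled over 8 to 10 plants, and every condition had its own chamber, so that condition and chamber cannot be told apart. Seeds of all groups had been inoculated with Bradyrhizobium japonicum, the nitrogen-fixing partner of soybean roots.

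Heat and drought usually strike a crop together, and the response to both at once is known not to be the plain sum of the single responses. Heat makes proteins unfold and calls on heat shock factors and chaperones, whereas lack of water raises abscisic acid and closes stomata. In soybean, flowers and pods are known to keep their own stomata open under the combination while leaves close theirs, which cools the reproductive organs. Genes that move under heat only when water is plentiful are one of the patterns that such a 4-condition design can show.

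The tables give IDs without names, and 0 of the IDs matched the gene table at hand, so no role can be stated for any of the 19 genes. By the naming convention of the soybean genome the digits before the G give the chromosome. The 19 genes carried 13 chromosome numbers, with at most 3 genes on 1 number, and no pair had neighbouring IDs. Because a pod library holds pod wall and seed together, fewer cells of a type and less RNA per cell cannot be told apart for any value below.

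Library totals ranged from 17310023 to 26591115 counts, at which 3 counts correspond to between 0.113 and 0.173 CPM. Water deficit replicate 2 stood apart from the other libraries: its counts between 6 and 65 were even in 87.5% of genes, and those of the 11 other libraries in 59.1 to 78.8%. Highest among those 11 were heat replicate 3 (78.8%), combined stress replicate 3 (75.5%) and heat replicate 1 (72.4%). Without water deficit replicate 2, 9 genes were higher and 11 lower under heat by the same rule, and all 19 genes were among them.

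The same rule was applied with each other group set apart, as a description of how common such genes are. With combined stress set apart 194 genes were higher and 119 lower, with control 13 and 6, and with water deficit 0 and 19. Heat-only genes were thus about as few as those of control or of water deficit alone and far fewer than those of combined stress. A rule on extremes is harder to meet where the libraries of a group scatter. The mean correlation of a library with its own group was 0.913 to 0.927 in heat and 0.880 to 0.922 under water deficit. It was 0.950 to 0.953 under combined stress and 0.952 to 0.962 in control. Of the lower genes, 5 for control, 5 for water deficit, 2 for heat and 1 for combined stress had 0 counts throughout that group. As shares of the 24924 genes within the level limits, the 9 higher genes were 0.0361% and the 10 lower ones 0.0401%. When heat was set only against control with the same fold and limits, 246 genes were higher and 147 lower, so that 3.66% and 6.80% of these were also apart from water deficit and combined stress.

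**Figure D1:**
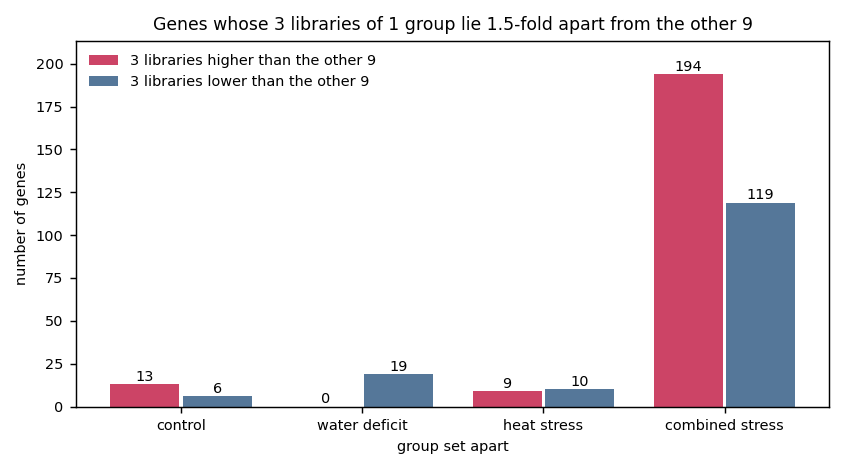
Number of genes (vertical axis, linear from 0) whose 3 libraries of one group were at least 1.5-fold above (pink) or below (blue) all 9 other libraries, for each of the 4 groups. Heat stress sets apart 9 and 10 genes and combined stress 194 and 119.

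Of the 9 genes higher in heat, GLYMA_09G041900 lay farthest from the other libraries. It had 1.81, 2.2 and 3.27 CPM in the 3 control libraries, 0.30, 1.96 and 0.114 under water deficit, 22.2, 12.8 and 10.3 under heat and 2.33, 3.16 and 2.02 under combined stress. The lowest heat library was 3.15 times the highest other one, and the mean under heat was 6.23 times that of control. Replicate 1 was the highest of the heat libraries, and water deficit was the lowest group, with 2 of its libraries at 6 and 2 counts. This gene passes the minimum mean only narrowly (5.21 CPM) and through its heat libraries, and it left the set when any 1 heat library was dropped.

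GLYMA_06G219900 had 10.2, 9.81 and 10.5 CPM in control, 10.4, 6.5 and 9.13 under water deficit, 72.3, 41.6 and 34.3 under heat and 11.9, 16.5 and 14.8 under combined stress. Its heat mean was 4.85 times the control mean, and all 3 combined-stress libraries lay above all 3 control libraries while staying far below heat. It was 1 of 2 higher genes, with GLYMA_09G041900, that also met the rule at a fold of 2.

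The most even of the higher genes was GLYMA_09G239600, with 189, 201 and 186 CPM in control, 162, 209.8 and 188 under water deficit, 367, 389 and 369.7 under heat and 206, 192 and 218 under combined stress. The 9 libraries without heat spanned 162 to 218 CPM, and the heat mean was 1.95 times that of control. GLYMA_20G129300 varied more, with 136, 86.3 and 66.9 CPM in control, 82.4, 92.2 and 81.1 under water deficit, 336, 224 and 290.4 under heat and 91.6, 95.7 and 136 under combined stress. Control replicate 1 and combined stress replicate 3 were its highest libraries outside heat, and the 3 groups other than heat overlapped with one another.

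Both GLYMA_17G134200 and GLYMA_08G155700 were weakly expressed genes with tight heat libraries. The former had 8.42, 8.68 and 9.77 CPM in control, 6.41, 3.03 and 6.74 under water deficit, 17.1, 19.2 and 16.9 under heat and 8.17, 10.5 and 6.72 under combined stress. The latter had 10.1, 6.79 and 8.43, then 7.41, 8.58 and 5.94, then 18.1, 16.5 and 18.3, and 7.90, 7.53 and 10.3 CPM in the same order. Their heat means were 1.98 and 2.09 times control, and in both genes the control and combined-stress libraries overlapped.

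GLYMA_20G210100 had 39.5, 43.4 and 36.6 CPM in control, 47.1, 25.2 and 39.7 under water deficit, 98.7, 84.1 and 86.2 under heat and 54.2, 42.7 and 50.8 under combined stress. The heat mean was 2.25 times control, and water deficit replicate 2 gave the lowest value of the 12. Per unit of length, the most abundant of the 19 genes was GLYMA_17G237100, at a mean FPKM (fragments relative to gene length and library size) of 483 in control. Its CPM values were 261, 309.5 and 273 in control, 182, 211 and 228 under water deficit, 686, 477 and 694 under heat and 305, 283 and 283 under combined stress. Here all water-deficit libraries lay below all others, and the heat mean was 2.2 times control.

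GLYMA_07G115400 had 457, 434 and 442 CPM in control, 229, 246 and 383 under water deficit, 688, 756 and 1196 under heat and 225, 171 and 287 under combined stress. It was thus 1.98 times control under heat, while every library with restricted water lay below every control library at either temperature. Of the higher genes it stood nearest to the limit of the rule, with a lowest heat library 1.504 times the highest other one, followed by GLYMA_17G237100 at 1.54. The nearest genes outside the limit had 1.46 and 1.44.

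**Figure D2:**
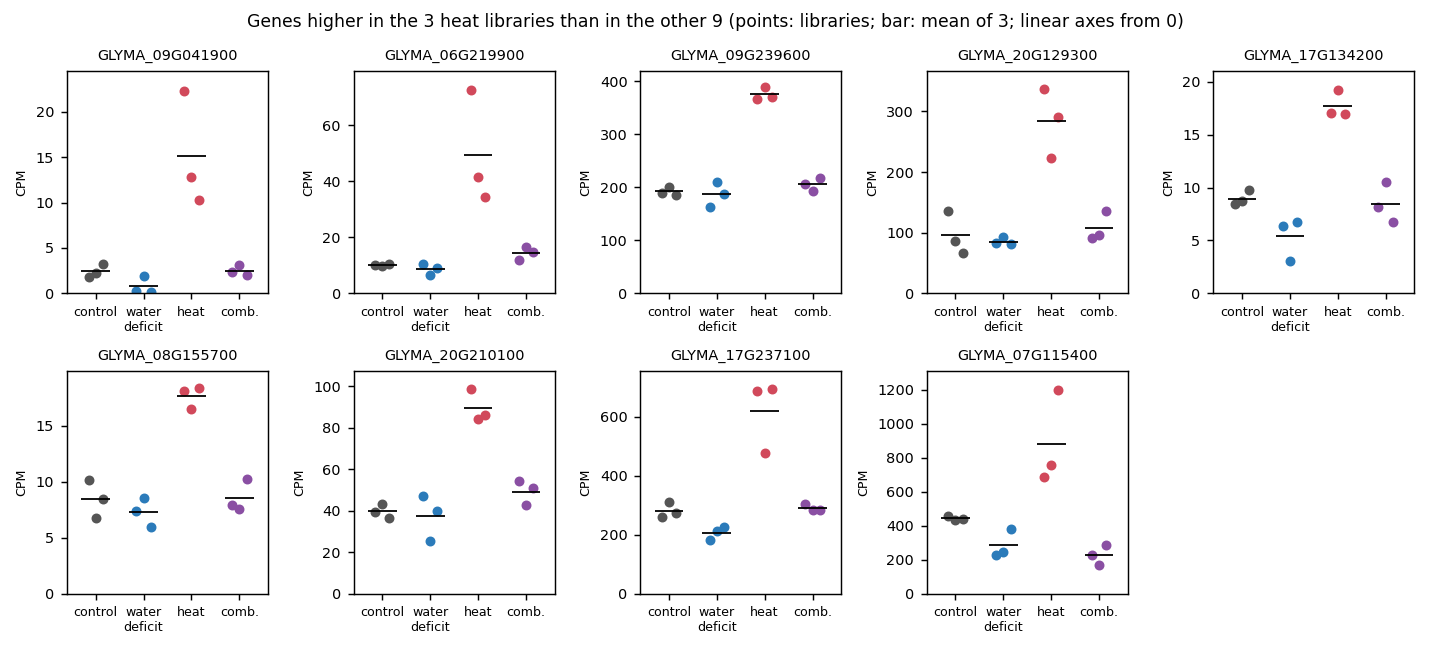
CPM (vertical axes, linear from 0) of the 9 genes higher in heat in the 4 groups. Each point is a library and each bar the mean of 3. In GLYMA_09G041900 heat reaches 10.3 to 22.2 CPM and no other library exceeds 3.27. GLYMA_07G115400 is the gene whose combined-stress libraries (171 to 287 CPM) fall below control (434 to 457 CPM).

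Among the 10 genes lower in heat, the 8 with counts in the heat libraries had control means between 2.19 and 5.68 times their heat means. GLYMA_15G002200 gave the widest gap, with 4.55, 4.85 and 4.79 CPM in control, 6.26, 2.69 and 3.43 under water deficit, 1.30, 0.982 and 0.215 under heat and 16.4, 27.5 and 10.6 under combined stress. Heat replicate 3 rested on 4 counts. The gene was lowest under heat with ample water and highest under heat with little water, in every library.

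GLYMA_11G193800 had 6.96, 10.4 and 9.68 CPM in control, 9.46, 15.5 and 11.5 under water deficit, 3.41, 2.48 and 0.860 under heat and 8.79, 10.4 and 6.97 under combined stress. Its 3 groups other than heat overlapped with one another. The deposited FPKM of this gene followed the counts poorly, the ratio of FPKM to CPM differing 5.94-fold between libraries. On FPKM the heat libraries were still the lowest (2.09 to 2.93 against at least 4.10) but no longer 1.5-fold apart.

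GLYMA_02G244000, the most abundant of the lower genes on CPM and per length, had 58.3, 67.9 and 86.4 CPM in control, 117, 84.0 and 69.1 under water deficit, 32.8, 28.2 and 24.8 under heat and 82.6, 64.7 and 61.8 under combined stress. GLYMA_10G142100 had 11.6, 10.0 and 14.7 CPM in control, 13.1, 19.6 and 15.8 under water deficit, 3.41, 4.39 and 2.69 under heat and 11.1, 26.5 and 7.56 under combined stress. In both genes the control and combined-stress libraries overlapped, and the combined-stress spread of GLYMA_10G142100 was the widest of its groups (SD 10.1 CPM around a mean of 15.1, n = 3).

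GLYMA_18G127400 had 3.76, 6.23 and 7.70 CPM in control, 9.61, 8.75 and 5.25 under water deficit, 2.2, 1.33 and 0.967 under heat and 8.61, 5.06 and 5.13 under combined stress. Control replicate 1 was the library nearest to heat in this gene, and again in GLYMA_13G092800, which had 3.76, 10.6 and 9.54 CPM in control. In GLYMA_13G092800 water deficit gave the highest values, 14.7, 16.5 and 12.1 CPM, heat the lowest, 2.34, 1.85 and 1.13, and combined stress lay between them at 5.56, 8.27 and 4.92. Its water-deficit libraries overlapped with no other group.

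GLYMA_09G029400 had 30.9, 34.4 and 26.4 CPM in control, 30.7, 39.1 and 39.3 under water deficit, 14.5, 16.1 and 11.2 under heat and 43.7, 59.8 and 39.5 under combined stress. GLYMA_06G073700 had 4.44, 4.80 and 5.21 CPM in control, 5.11, 6.61 and 4.80 under water deficit, 1.66, 2.89 and 0.967 under heat and 8.43, 8.50 and 9.96 under combined stress. Both share with GLYMA_15G002200 the order of heat at the bottom and combined stress at the top, without overlap between combined stress and any other group, although in GLYMA_09G029400 the gap to water deficit was only that between 39.5 and 39.3 CPM and closed with TMM scaling. GLYMA_06G073700 was nearest to the limit among the lower genes, its lowest library outside heat being 1.54 times the highest heat library, and GLYMA_13G092800 followed at 1.61. The nearest genes outside had 1.49 in both cases.

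The remaining 2 genes entered the lower set because 0 is not above 0. GLYMA_08G341000 had 0, 0.511 and 0 CPM in control, 6.71, 1.35 and 0.685 under water deficit, 0 in all 3 heat libraries and 83.2, 60.3 and 10.8 under combined stress. GLYMA_04G077600 had 0 counts in all control and heat libraries, 0.501, 0 and 0.114 CPM under water deficit and 61.7, 51.5 and 3.45 under combined stress. Set against a floor of 3 counts per library, its combined-stress mean was at least 288-fold above control, and that of GLYMA_08G341000 at least 329-fold above heat. Their signal lay almost wholly in combined stress, where replicate 3 was the lowest library for both.

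**Figure D3:**
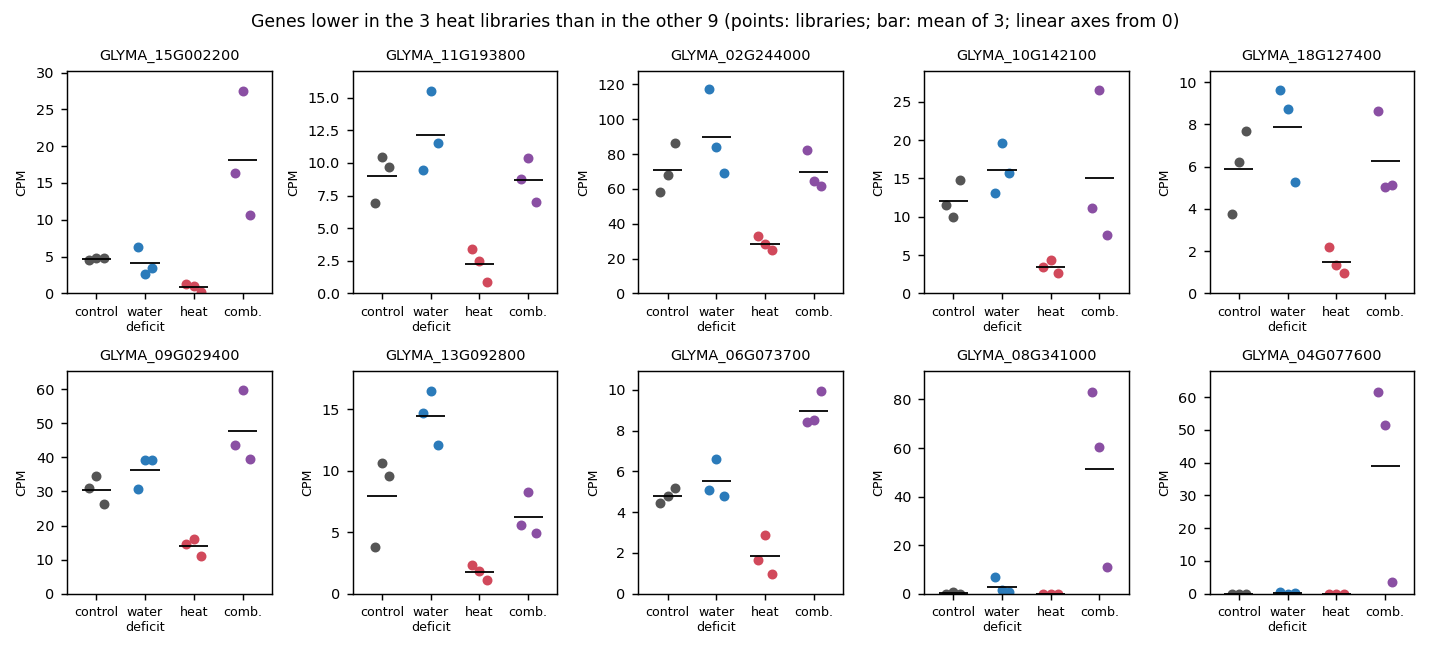
CPM (vertical axes, linear from 0) of the 10 genes lower in heat in the 4 groups. Each point is a library and each bar the mean of 3. Combined stress is the highest group in GLYMA_15G002200 (10.6 to 27.5 CPM) and in GLYMA_06G073700 (8.43 to 9.96 CPM), and the final 2 panels show genes at 0 CPM in heat whose signal is in combined stress.

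Of the lower genes, 4 reached the minimum mean of 5 CPM only through their combined-stress libraries, and had therefore to be high there. They were GLYMA_15G002200, GLYMA_06G073700, GLYMA_08G341000 and GLYMA_04G077600, with means of 3.23, 4.05, 1.03 and 0.0683 CPM over the 9 libraries without combined stress. With the minimum applied to those 9 libraries, 6 lower genes were left and the 9 higher genes were the same. That check was chosen after the values were seen.

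The comparison that the rule did not make is between the groups other than heat. It was fitted with edgeR's quasi-likelihood test on the 9 libraries of control, water deficit and combined stress, over 37966 genes that passed a filter on low counts, with Benjamini-Hochberg adjustment over all of them and a call at an adjusted p under 0.05. All 19 genes passed the filter. The rule bounds these 9 libraries on one side of heat, and the tests do not share its contrast. Because their level under combined stress was fixed by the minimum mean, the 4 genes named above are left out here of the counts, medians and tests of both comparisons with combined stress. Their values there are a description. Counts and medians that include them appear only in the closing section on processing, and are marked there.

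Combined stress against control asks whether pods under both stresses returned to the unstressed level. Of the 9 genes higher in heat, 1 was called, and it was lower in combined stress than in control. Over all genes tested, 10.4% were called lower, 6.91% higher and 17.3% in either direction. The called gene was GLYMA_07G115400, which fell from 444 ± 11.9 to 228 ± 57.9 CPM (SD, n = 3 each, log2 change -1.02, SE 0.21, edgeR adjusted p = 0.00626). It was called in all 18 other fits.

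For the 8 higher genes without a call, the log2 changes of combined stress against control ran from -0.14 to 0.44, with a median over all 9 of -0.01 beside 0.01 over all genes tested. The median absolute log2 change was 0.10, against 0.41 over all genes. These genes were held back from a large rise by the rule, which keeps control and combined stress alike at least 1.5-fold below heat. The value over all genes is free of that limit, so the medians are not like for like. The tightest intervals were those of the abundant genes. For GLYMA_17G237100 the 95% interval of the combined level was 0.843 to 1.17 times control, and for GLYMA_09G239600 it was 0.878 to 1.20 times. The widest was that of GLYMA_09G041900, from 0.330 to 2.99 times control. In that gene the rule also kept every combined-stress library at least 1.5-fold below the lowest heat library of 10.3 CPM. The interval therefore does not tell how large a rise could have been seen. For GLYMA_06G219900, whose combined-stress libraries did not overlap with control, the interval was 0.965 to 1.91 times (edgeR adjusted p = 0.219).

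Of the 6 lower genes that met the minimum level without combined stress, 1 was called higher in combined stress than in control and 0 lower. The shares over all genes tested were 6.91% higher and 10.4% lower. The median log2 change of the 6 was -0.02. In these genes the rule kept combined stress at least 1.5-fold above the highest heat library, which held them back from a large fall. The called gene was GLYMA_09G029400, which rose from 30.6 ± 4.04 to 47.7 ± 10.7 CPM (SD, n = 3 each, log2 change 0.58, SE 0.17, edgeR adjusted p = 0.0273). Its call was lost without control replicate 1 or 3 or combined stress replicate 1 or 2, and its adjusted p ranged from 0.0108 to 0.161 over the other fits.

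The other 5 lower genes had log2 changes of combined stress against control between -0.40 and 0.25, none of them called. Their 95% intervals reached from 0.692 to 1.30 times control in GLYMA_02G244000, from 0.641 to 1.35 in GLYMA_11G193800, from 0.617 to 1.72 in GLYMA_18G127400, from 0.665 to 2.13 in GLYMA_10G142100 and from 0.458 to 1.247 in GLYMA_13G092800. Equality with control lies within these ranges, and so do differences up to their bounds. Counting groups that do not overlap on CPM, 2 of the 9 higher genes and 1 of the 6 lower genes had combined-stress libraries apart from control, where 41.3% of all genes tested did.

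**Figure D4:**
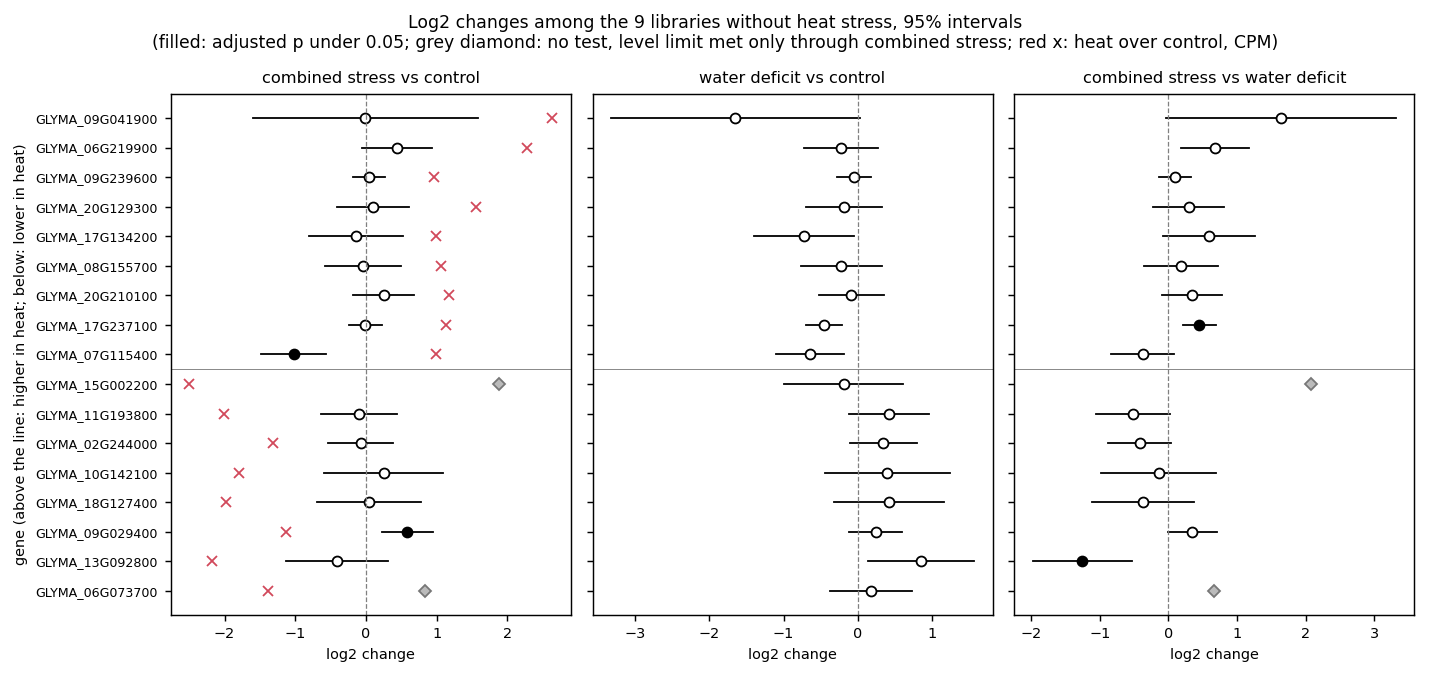
Log2 changes (horizontal axes) of the 17 genes with counts in heat, in the 3 comparisons among the 9 libraries without heat. Circles are edgeR estimates with 95% intervals, filled where the adjusted p was under 0.05, grey diamonds are estimates of the genes that met the minimum mean only through combined stress and were not tested there, and red crosses show the log2 ratio of the heat and control mean CPM, which the rule used. Against control, GLYMA_07G115400 (-1.02) and GLYMA_09G029400 (0.58) lie on the other side of 0 from their heat crosses.

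Water deficit against control asks whether these genes differed between the 2 cooler chambers, where water and chamber cannot be told apart. No gene of the 19 was called (edgeR, 4 with an unadjusted p under 0.05, and 1 call by DESeq2), where 0.0975% of all genes tested were. The estimates were nonetheless one-sided. All 9 genes higher in heat had a log2 change below 0, with a median of -0.23. Of the 8 lower genes with counts in heat, 7 had one above 0, with a median of 0.37. Over all 10 lower genes it was 9, with a median of 0.40, but that count had to include GLYMA_04G077600. This gene had 0 counts in all control libraries, and GLYMA_08G341000 had 0 in 2 of them. The first median was -0.40 without control replicate 3 and -0.38 without water deficit replicate 1. The 7 lower genes include GLYMA_18G127400, which met the minimum mean only through its water-deficit libraries (4.55 CPM without them). That minimum favoured its log2 change of 0.41, and no count or median without this gene is given. Over all genes tested 46.8% were above 0 and the median was -0.02. Heat and water deficit are here compared with the same control libraries.

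The largest estimates among the higher genes were those of GLYMA_09G041900 (log2 change -1.65) and GLYMA_17G134200 (-0.73). The lowest p-values were in GLYMA_17G237100, at 207 ± 23.2 CPM under water deficit and 281 ± 25.3 in control (SD, n = 3 each, log2 change -0.45, SE 0.11, edgeR adjusted p = 0.288), and in GLYMA_07G115400, at 286 ± 84.4 and 444 ± 11.9 CPM (log2 change -0.65, SE 0.21, edgeR adjusted p = 0.668). Among the lower genes GLYMA_13G092800 had 14.4 ± 2.2 CPM under water deficit and 7.98 ± 3.69 in control (SD, n = 3 each, log2 change 0.85, SE 0.33, edgeR adjusted p = 0.817). The libraries of both groups did not overlap in 3 higher genes, lower under water deficit in each, and in 2 lower genes, higher under water deficit in each. Those 2 were GLYMA_13G092800 and, at 0 counts in 2 control libraries, GLYMA_08G341000. Over all genes tested 11.3% did not overlap.

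Combined stress against water deficit compares the hotter with the cooler chamber in plants short of water, where temperature and chamber cannot be told apart. It called 1 of the 9 higher genes and 1 of the 6 lower genes whose level did not rest on combined stress, where 17.1% of all genes tested were called. The 6 include GLYMA_18G127400, which was not called. Its minimum mean rested on water deficit (4.55 CPM without it), so the gene had to be high in the reference group here. GLYMA_17G237100 rose from 207 ± 23.2 to 291 ± 12.6 CPM (SD, n = 3 each, log2 change 0.45, SE 0.11, edgeR adjusted p = 0.0136), and its call was lost without combined stress replicate 1 and in the fit of 12 libraries (adjusted p from 0.000822 to 0.0678 over the other fits). Its combined level, 291 CPM, was close to that of control, 281 CPM, while heat with ample water had 619 ± 123 CPM (SD, n = 3).

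GLYMA_13G092800 fell from 14.4 ± 2.2 to 6.25 ± 1.78 CPM (SD, n = 3 each, log2 change -1.255, SE 0.34, edgeR adjusted p = 0.0204), in the same direction as its values under heat with ample water, and its call was lost without combined stress replicate 1 or 3 (adjusted p from 0.00369 to 0.0869 over the other fits).

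Of the 9 higher genes 8 had a log2 change above 0 in combined stress against water deficit, with a median of 0.34 beside 0.04 over all genes tested, of which 52.5% were above 0. The exception was GLYMA_07G115400 (log2 change -0.38, SE 0.21, edgeR adjusted p = 0.250). Largest among those without a call was GLYMA_09G041900, with 0.792 ± 1.02 CPM under water deficit and 2.50 ± 0.590 under combined stress (SD, n = 3 each, log2 change 1.64, SE 0.79, edgeR adjusted p = 0.174). On CPM, 3 of the higher genes had combined-stress libraries above all water-deficit libraries, and of the 6 lower genes 1 was above and 1 below, where 35.2% of all genes tested did not overlap. The 8 estimates above 0 here and those below 0 for water deficit against control rest on the same 3 water-deficit libraries. They are therefore not separate results. For combined stress against control the median of the 9 higher genes was -0.01.

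The number of genes that met the rule depended on single libraries more than on scaling. With CPM scaled by TMM factors or by DESeq2 size factors the same 19 genes met the rule. Left out one at a time, heat replicate 2 moved the counts most, to 25 higher and 45 lower genes. Without control replicate 1 there were 12 and 23, without heat replicate 1 10 and 20, and without heat replicate 3 13 and 19. A rule that compares extremes meets fewer libraries in such a repeat and can only become easier for genes within the level limits. In each repeat 8 or 9 of the 9 higher and 9 or 10 of the 10 lower genes stayed. Those lost were GLYMA_09G041900 without any 1 heat library, GLYMA_06G073700 without any 1 combined-stress library and GLYMA_18G127400 without water deficit replicate 1. On the deposited FPKM all 9 higher genes, and the 8 lower genes with counts in heat, kept their heat libraries apart from the other 9, and 8 higher and 4 of those lower genes kept a gap of 1.5-fold.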

How the data were processed

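RNA sequencing libraries of soybean pods, 12 in 4 groups of 3, were grouped by their titles. The authors deposited 2 tables with 1 column per library, one of raw read counts by gene ID and one of FPKM. HISAT2 2.2.1 is listed in the submitters' processing notes. The counting tool, strand setting, annotation and genome build are not given in the sources used here, so reads shared by near-identical copies may have been split.

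Counts were used as deposited. CPM in the text divides by the column sum, as the rule does. Tests used edgeR 4.0.16 in R 4.3.3 (glmQLFit with robust estimation, TMM factors, filterByExpr by group) on the 9 libraries without heat. The SE of a log2 change was derived from the F statistic (change over root F), and 95% intervals follow from it. DESeq2 1.42.0, limma-voom and limma 3.58.1 on log2(FPKM + 1), other scalings and filters, all 12 libraries, and each library left out in turn were alternatives. The scripts were tested on simulated data. The deposited FPKM does not follow the counts by a fixed factor and served as a check only.

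The genes and lists were chosen with earlier results of these data known. The naming rule asked for the 2 genes with the widest separation in each direction where IDs have no names. The other members are named because they are the subject, after their values were seen. Planned lists of pathways and tissue markers, promoter motifs and sequences were not run, since 0 of 57147 IDs matched the gene table (assembly Glycine_max_v4.0), so pods could not be checked against markers. Nothing in the labels says that libraries with the same number share an origin. Libraries were pooled from separate sets of pods, so p-values measure the spread between such pools within a chamber, not between chambers.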

Additional observations from a re-analysis of the deposited data

Results flagged for a closer look

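In 3 of the lower genes the heat libraries lay below all control libraries, which the rule required, while the combined-stress libraries lay above all water-deficit libraries. In GLYMA_15G002200 and GLYMA_06G073700 the minimum mean, which they met only through combined stress, also favoured the latter. Among the 24924 genes within the level limits, 0.425% had both features, and among the 3411 with heat below control the share was 3.11%. Genes in these shares did not have to meet the rule, which also kept combined stress at least 1.5-fold above heat in the 3 genes. The shares are therefore not like for like with them. The control mean of GLYMA_15G002200 was 5.68 times its heat mean, and its combined-stress mean was 4.40 times its water-deficit mean. In GLYMA_06G073700 the same ratios were 2.62 and 1.63, and in GLYMA_09G029400 they were 2.19 and 1.31. In GLYMA_09G029400 the libraries of combined stress and water deficit overlapped when CPM was scaled by TMM factors. The difference between the 2 effects was not tested, because the rule that chose these genes used the first of them.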

How the results depend on the processing

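The number of genes set apart by heat, 9 higher and 10 lower, was 2 and 4 at a fold of 2, 28 and 30 at a looser fold (midway between none and that of the rule), 19 and 32 with a minimum mean of 1 CPM, 675 and 3845 without limits on the level (3817 of the latter at 0 in all heat libraries), and 17 and 26 on FPKM, of which 8 and 5 were among the 19. With the minimum mean taken over the 9 libraries without combined stress, 6 lower genes were left. Leaving out 1 library at a time gave 9 to 25 higher and 9 to 45 lower genes.

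For combined stress against control, 2 of the 15 genes whose minimum mean did not rest on combined stress were called. Over all genes tested 17.3% were called. That count of 2 was chosen after the values were seen, and was 1 to 2 with 1 library left out. Counts over all 19 include the 4 genes left out above and only describe how settings move them. Over all 19 there were 6 in the main fit, 2 at an adjusted p under 0.01, and from 2 to 5 with 1 library left out. For water deficit against control the count over all 19 was 0, and 1 by DESeq2. For combined stress against water deficit 2 of the same 15 were called, beside 17.1% of all genes tested, and from 0 to 4 with 1 library left out. These 15 include GLYMA_18G127400, whose minimum mean rested on water deficit. Of all 19, again as a description, there were 3 in the main fit, 5 by DESeq2 and 7 by limma on FPKM. There was 1 at an adjusted p under 0.01 and from 1 to 6 with 1 library left out. With the replicate number as a block, 5 of the 19 were called in that comparison. The numbers do not pair the libraries, as the departures of libraries with equal numbers from the means of their groups correlated between -0.232 and 0.0676. No called gene reversed its direction in any setting. Of 84 repeats of the medians, 82 moved by less than the spread between libraries. The other 2 are those of the higher genes for water deficit against control, without control replicate 3 and without water deficit replicate 1. These repeats took all 10 lower genes, including those left out above. The medians given above for 6 or 8 lower genes were not repeated. The causes of these changes were not tested. Genes under about 5 CPM rest on few counts in heat, down to 4 in a library.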
